A study of Mus musculus with 12 samples.

Results

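The Hox genes of the mouse encode homeodomain transcription factors and lie in the Hoxa, Hoxb, Hoxc and Hoxd clusters on chromosomes 6, 11, 15 and 2. Genes of the same number in different clusters form a paralog group, and within a cluster the genes run from low to high number. A list of 38 of them was followed, and its members were taken by gene symbol and not by any measured level. Of these, 33 had a probe set of their own on the array, of 18193 genes that had any, through 48 of its 45101 probe sets. Hoxb8 and Hoxd4 were measured only on probe sets shared with Hoxb7 and Hoxd3, and Hoxa6, Hoxc11 and Hoxc12 were not analysed here.

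The values came from 12 one-colour expression arrays of sorted mouse embryonic cells at stage E12.5, with 3 biological replicates in each of 4 groups and 200000 cells per array. C+ was caudal YFP-positive serotonin (5HT) neurons, R+ rostral YFP-positive serotonin neurons, C- caudal YFP-negative cells and R- rostral YFP-negative cells. All 4 groups came from neural tubes of ePet-EYFP embryos, in which a transgene marks serotonin neurons with a yellow fluorescent protein (YFP), so the negative groups carried the transgene too. The rostral piece ran between the mesencephalic and pontine flexures, and the caudal piece from the pontine flexure to the spinal cord. C- and R- are mixtures of all other cells of their piece, and the labels do not say how many embryos or litters went into a replicate, so the tests see the spread of these samples, which may be partly technical.

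Along the body axis, Hox genes of low number start more rostrally than those of high number. In the hindbrain their rostral borders fall at the borders of its segments, the rhombomeres, while the midbrain and the most rostral rhombomere lie ahead of Hox expression. The proteins bind DNA together with Pbx, Meis and Pknox cofactors, retinoic acid and Cdx factors switch on parts of the clusters, and Polycomb proteins keep silent parts silent. In hindbrain and spinal cord the genes set the identity of motor neuron pools and other neuron classes at each level.

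The sorted populations were checked first. All 10 serotonin markers were higher in both positive groups than in their negative groups. Over all probe sets, the positive group was higher for 3.56% in the caudal piece and for 2.79% in the rostral piece. Marker signals summed to 54672 to 59232 in C+, 79235 to 86557 in R+, 2352 to 3475 in C- and 4884 to 5306 in R-. En2, an engrailed factor of the midbrain and isthmus, read 175, 89 and 124 in C+ and 2092, 2312 and 2224 in R+, against 116, 27 and 61 in C- and 3339, 4041 and 3452 in R-. En1 and Cnpy1, of the same region, were also lower in C+ than in R+, with differences of -3.79 ± 0.30 and -3.10 ± 0.25 (SE) on the log2 scale. Of the 8 tested genes in a list for this region, 4 were lower and 1, Gbx2, was higher in C+ than in R+. Of all probe sets, 1.38% were lower and 2.39% higher. Signals are linear, and the mean without the lowest and highest 2% was 500 on every array. The median array signal was 93 to 121. Differences below are in log2(signal + 10), with the standard error (SE) of a limma fit over all 12 arrays, and a gene passed at an adjusted p under 0.05 over all 26061 probe sets tested. On this scale the change of a dim gene is understated, and 3 arrays per group limit the precision.

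Of the 38 genes, 20 passed a filter on low signal (3 or more arrays above 107, which is the median signal of the table) and were tested. In paralog groups 2 to 6, 12 of 13 tested genes were higher in the caudal than in the rostral cells in both comparisons, and Hoxc6 passed in neither. In C+ against R+, 13 genes rose and 0 fell, where 2.39% of all probe sets rose. In C- against R-, 12 rose and 0 fell, where 0.959% of all probe sets rose. In a bulk sample, fewer cells with a transcript and less transcript per cell cannot be told apart. The filter reads all arrays, and for 8 of the 20 tested genes every array over its threshold was a C+ or C- array, so a difference was partly built into passing. Without a filter on low signal, the counts were again 13 and 12.

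Paralog groups 1 to 3 hold 7 listed genes, all tested, of which 6 rose in C+ against R+ and 5 in C- against R-. Groups 4 to 6 hold 10 listed genes, of which 8 were tested and 7 rose in each comparison. In groups 7 to 9, 2 of 9 listed genes were tested, in groups 10 to 13, 3 of 12, and 0 of these passed in either comparison. By cluster, 4 Hoxa, 5 Hoxb, 2 Hoxc and 2 Hoxd genes rose in C+ against R+, and 4, 5, 2 and 1 in C- against R-. Over the 33 genes with a probe set, the median difference was 0.55 in C+ against R+ and 1.32 in C- against R-, where it was 0.01 and 0.05 over all probe sets on the array. All 3 C+ arrays lay above all 3 R+ arrays for 13 of the 20 tested genes, as for 13.2% of all probe sets, and all 3 C- arrays above all 3 R- arrays for 16, as for 9.32%.

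**Figure D1:**
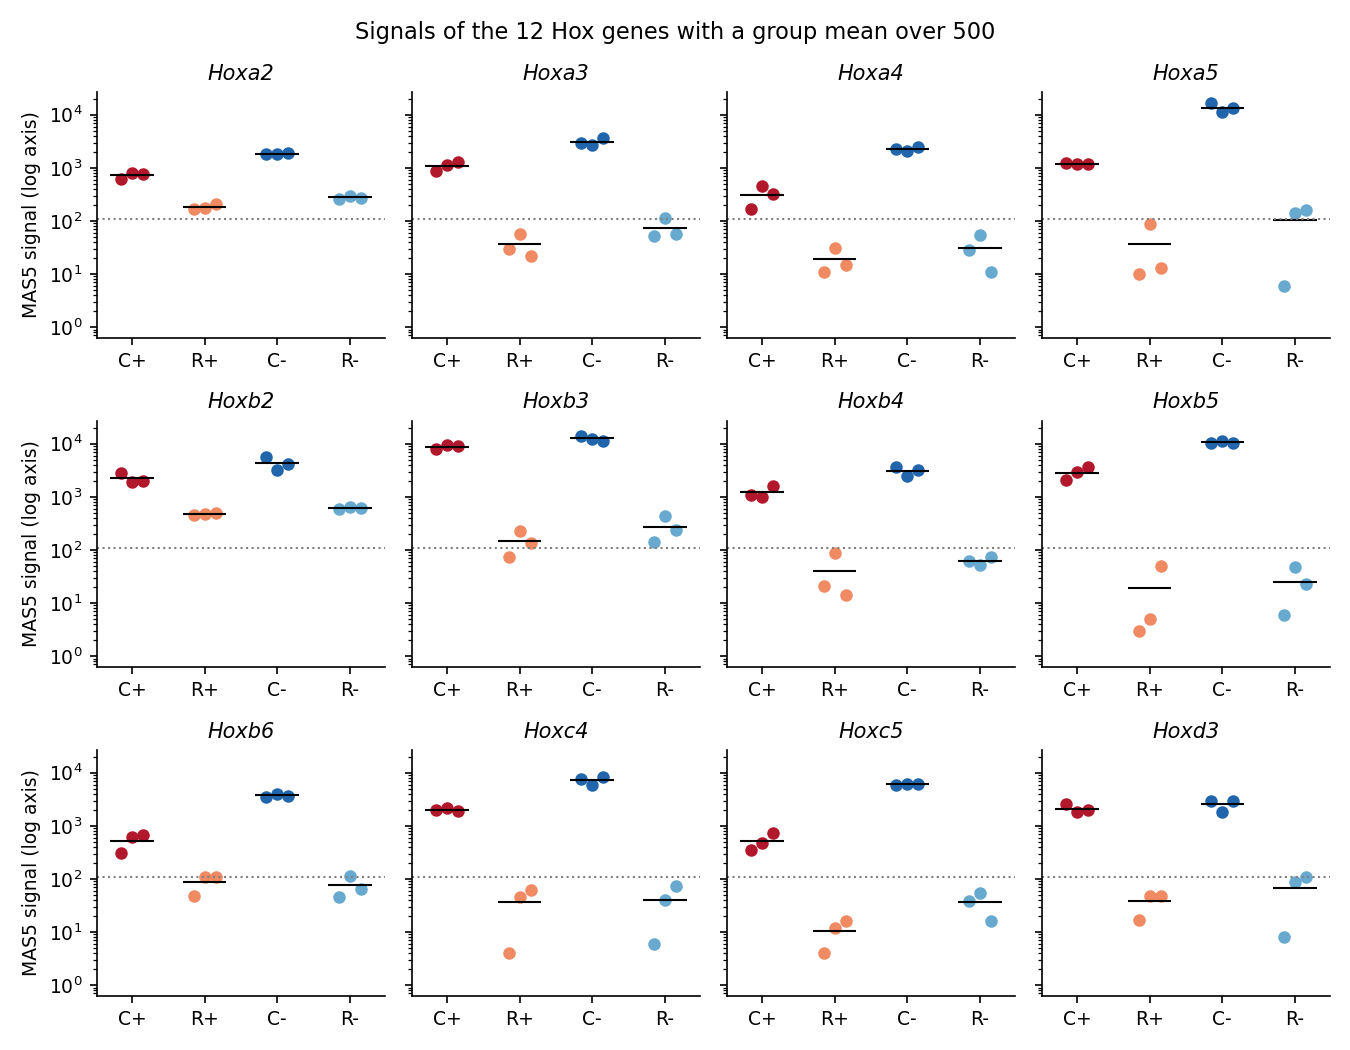
Signal on every array of the 12 Hox genes with a group mean over 500 (log axis, MAS5 signal); points are arrays, black bars group means of 3, and the dotted line is the filter threshold of 107. In each of the 12 genes the C+ and C- points lie above the R+ and R- points, and in 11 of them, Hoxd3 being the exception, the C- points lie above the C+ points.

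The promoters of genes that rose together are shown for 1 gene per cluster, the gene with the largest C+ minus R+ difference among those with a group mean over 500 and an entry in the RefSeq promoter table (GRCm38.p6). Each is the 250 bases before the annotated start, 5′ to 3′ on the strand of the gene. The windows are Hoxa5 at chr6:52204588-52204837 on the minus strand, Hoxb4 at chr11:96318017-96318266, Hoxc4 at chr15:103034145-103034394 and Hoxd3 at chr2:74711743-74711992, these 3 on the plus strand. Capitals mark matches to the motifs searched on both strands, where TGACCT is AGGTCA, the 6-base unit that retinoid receptor sites hold as a repeated pair, on the other strand and TTTATG is the Cdx motif, which overlaps TGACCT in Hoxd3.
Hoxa5: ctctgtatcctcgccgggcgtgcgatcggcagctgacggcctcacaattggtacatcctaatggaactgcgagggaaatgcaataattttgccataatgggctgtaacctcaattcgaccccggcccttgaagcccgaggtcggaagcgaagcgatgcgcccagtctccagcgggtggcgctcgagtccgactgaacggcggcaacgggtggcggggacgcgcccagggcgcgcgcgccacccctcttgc
Hoxb4: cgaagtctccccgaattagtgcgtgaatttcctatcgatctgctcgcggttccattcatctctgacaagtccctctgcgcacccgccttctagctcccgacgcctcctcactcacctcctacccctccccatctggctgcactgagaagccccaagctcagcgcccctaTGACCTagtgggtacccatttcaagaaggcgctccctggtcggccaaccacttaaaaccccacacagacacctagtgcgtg
Hoxc4: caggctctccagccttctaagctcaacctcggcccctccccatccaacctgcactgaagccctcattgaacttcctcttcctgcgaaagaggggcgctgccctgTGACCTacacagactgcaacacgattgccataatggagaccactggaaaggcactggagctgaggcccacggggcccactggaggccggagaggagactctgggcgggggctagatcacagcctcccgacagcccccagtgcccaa
Hoxd3: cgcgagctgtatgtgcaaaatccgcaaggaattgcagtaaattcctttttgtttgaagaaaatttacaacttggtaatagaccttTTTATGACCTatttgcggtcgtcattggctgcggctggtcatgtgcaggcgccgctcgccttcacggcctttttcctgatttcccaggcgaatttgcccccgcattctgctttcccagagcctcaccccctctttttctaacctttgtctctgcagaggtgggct

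The table held 24 windows of 22 of the 38 genes. The single unit AGGTCA, which is not a whole receptor site, was in 6 of these 24 windows (25%), against 14% of all 32841 windows of that length. The Cdx motif TTTATG was in 5 (20.8%), against 10.8%, the Pbx-Hox motif TGATNNAT in 4 (16.7%), against 7.69%, and TGACAG, read by Meis and Pknox, in 2 (8.33%), against 15.9%. The Hox windows had a median GC content of 58.6% against 52.4% in all windows. These counts describe letters in short windows, and the difference in base composition stands beside each.

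In the Hoxa cluster, Hoxa2 is known for patterning the hindbrain and the neural crest of the pharyngeal arches. It read 625, 810 and 781 in C+ and 170, 177 and 209 in R+, against 1792, 1819 and 1931 in C- and 261, 297 and 273 in R-. The 4 groups did not overlap. Hoxa2 was higher by 1.93 ± 0.16 in C+ than in R+ (adjusted p = 9.34e-06) and by 2.70 ± 0.16 in C- than in R- (adjusted p = 9.16e-07). Hoxa3, which acts in the caudal pharyngeal arches and thymus, read 875, 1120 and 1304 in C+ and 29, 58 and 22 in R+, against 2921, 2703 and 3648 in C- and 51, 115 and 58 in R-. Its rostral arrays were near or under the filter threshold. The differences were 4.64 ± 0.32 (adjusted p = 2.05e-06) and 5.26 ± 0.32 (adjusted p = 9.16e-07).

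Hoxa4, a patterning gene of the caudal hindbrain and neck, read 165, 453 and 315 in C+ and 11, 31 and 15 in R+, against 2251, 2049 and 2433 in C- and 28, 54 and 11 in R-. C+ lay between the rostral arrays and C-, overlapping neither. The difference was 3.42 ± 0.43 in C+ against R+ (adjusted p = 0.000472) and 5.92 ± 0.43 in C- against R- (adjusted p = 5.77e-06). Hoxa5, needed for phrenic motor neurons and lung, read 1209, 1171 and 1193 in C+ and 10, 87 and 13 in R+, against 16521, 11035 and 13488 in C- and 6, 143 and 164 in R-. Hoxa5 rose by 5.08 ± 0.75 (adjusted p = 0.00166) and 7.49 ± 0.75 (adjusted p = 8.5e-05). The dim Hoxa9, Hoxa11 and Hoxa13, known from blood, kidney and limb, lay between 3 and 261 on all arrays and none of them passed in any comparison.

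In the Hoxb cluster, Hoxb2, which acts in facial motor neurons, read 2810, 1906 and 2011 in C+ and 457, 478 and 499 in R+, against 5612, 3148 and 4150 in C- and 583, 634 and 615 in R-. Like Hoxa2, it stayed above the threshold on every rostral array. It was higher by 2.19 ± 0.20 in C+ than in R+ (adjusted p = 2.29e-05) and by 2.76 ± 0.20 in C- than in R- (adjusted p = 5.68e-06). Hoxb3, a paralog of Hoxa3 that acts in hindbrain motor neurons, read 7967, 9359 and 9141 in C+ and 75, 232 and 136 in R+, against 13958, 12490 and 11274 in C- and 142, 434 and 241 in R-. The differences were 5.93 ± 0.36 (adjusted p = 6.6e-07) and 5.61 ± 0.36 (adjusted p = 1.59e-06). Hoxb4, which is induced by retinoic acid in the caudal hindbrain, read 1083, 985 and 1616 in C+ and 21, 86 and 14 in R+, against 3626, 2457 and 3256 in C- and 61, 52 and 73 in R-. It rose by 4.87 ± 0.41 (adjusted p = 8.77e-06) and 5.43 ± 0.41 (adjusted p = 6.29e-06).

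Hoxb5, which acts in the enteric and vagal crest, read 2079, 2950 and 3580 in C+ and 3, 5 and 50 in R+, against 10257, 11129 and 10318 in C- and 6, 47 and 23 in R-. Every rostral array was far under the threshold. Hoxb5 rose by 6.95 ± 0.52 in C+ against R+ (adjusted p = 3.8e-06) and by 8.41 ± 0.52 in C- against R- (adjusted p = 1.03e-06). Hoxb6, a neck and thoracic patterning gene, read 308, 608 and 659 in C+ and 47, 111 and 108 in R+, against 3502, 4010 and 3725 in C- and 46, 115 and 66 in R-. It rose by 2.45 ± 0.36 (adjusted p = 0.00174) and 5.53 ± 0.36 (adjusted p = 1.6e-06). Hoxb1, the gene of the facial motor rhombomere, read 61, 72 and 97 in C+ and 40, 70 and 140 in R+, against 184, 168 and 226 in C- and 76, 51 and 67 in R-. Hoxb1 did not pass between C+ and R+ (0.02 ± 0.42, adjusted p = 0.989) or between C- and R- (1.44 ± 0.42, adjusted p = 0.137), although its C- and R- arrays did not overlap.

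In the Hoxc cluster, Hoxc4 read 2012, 2123 and 1939 in C+ and 4, 45 and 63 in R+, against 7731, 5967 and 8177 in C- and 6, 40 and 74 in R-. It belongs to the group of neck-level patterning genes and rose by 5.73 ± 0.58 (adjusted p = 6.15e-05) and 7.48 ± 0.58 (adjusted p = 8.59e-06). Hoxc5, which acts with Hoxa5 in phrenic motor neurons, read 354, 470 and 749 in C+ and 4, 12 and 16 in R+, against 5850, 6267 and 6255 in C- and 38, 55 and 16 in R-. The C+ arrays stood between the R+ and the C- arrays without overlap, and the differences were 4.67 ± 0.36 (adjusted p = 5e-06) and 7.15 ± 0.36 (adjusted p = 2.88e-07). Hoxc6, a gene of limb-level motor neurons, read 118, 187 and 174 in C+ and 175, 241 and 310 in R+, against 286, 304 and 368 in C- and 108, 149 and 226 in R-. It passed in neither comparison (-0.56 ± 0.30, adjusted p = 0.336, and 1.00 ± 0.30, adjusted p = 0.159).

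In the Hoxd cluster, Hoxd3, which shapes the first neck vertebrae, read 2538, 1802 and 1975 in C+ and 17, 48 and 48 in R+, against 2911, 1843 and 2899 in C- and 8, 87 and 110 in R-. It rose by 5.54 ± 0.56 (adjusted p = 5.54e-05) and 5.40 ± 0.56 (adjusted p = 0.000107). Hoxd1, known in mouse for wiring of pain-sensing neurons, read 142, 236 and 198 in C+ and 11, 6 and 29 in R+, against 56, 95 and 102 in C- and 26, 40 and 34 in R-. C+ lay above every other array for Hoxd1. It rose by 3.07 ± 0.52 in C+ against R+ (adjusted p = 0.00458) and differed by 1.10 ± 0.52 in C- against R- (adjusted p = 0.436). The difference between these differences, 1.97 ± 0.73, did not pass (adjusted p = 0.622).

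**Figure D2:**
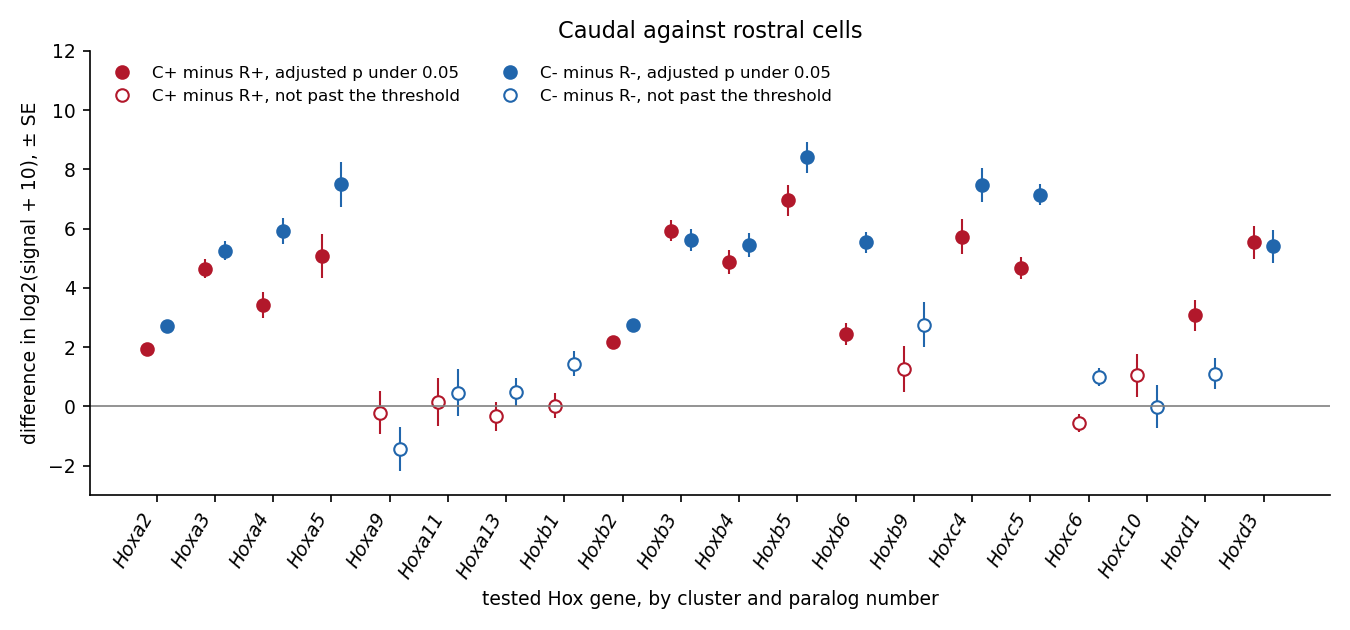
Difference in log2(signal + 10) between caudal and rostral cells for the 20 tested Hox genes, C+ minus R+ in red and C- minus R- in blue, with SE bars and filled points at an adjusted p under 0.05. The filled points run from 1.93 for Hoxa2 to 6.95 for Hoxb5 in C+ minus R+, and from 2.70 for Hoxa2 to 8.41 for Hoxb5 in C- minus R-; open points lie between -1.44 for Hoxa9 and 2.75 for Hoxb9.

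On probe sets of their own, 5 genes of paralog groups 7 to 13 were tested and 0 passed in any comparison. Hoxa7, Hoxa10, Hoxb7, Hoxb13, Hoxc8, Hoxc9, Hoxc13, Hoxd8, Hoxd9, Hoxd10, Hoxd11, Hoxd12 and Hoxd13, whose best-known roles are in the trunk, limb and tail, did not pass the filter. All 20 Hox probe sets left out by the filter read 1 to 221 with a median of 22.5, and 13 of their 240 values were over 107. No detection calls were used here, so such signals give no order. Hoxb9, tested at 59, 95 and 132 in C+ and 29, 11 and 81 in R+, against 242, 68 and 612 in C- and 30, 8 and 46 in R-, did not pass (1.26 ± 0.76, adjusted p = 0.403, and 2.75 ± 0.76, adjusted p = 0.118). Hoxc10, a gene of lumbar motor neurons, read 7 to 125 on all arrays. The probe set shared by Hoxb8 and Hoxb7 read 249, 510 and 906 in C+ and 49, 18 and 101 in R+, against 1721, 1209 and 1901 in C- and 37, 80 and 84 in R-. It rose by 3.13 ± 0.51 (adjusted p = 0.00319) and 4.44 ± 0.51 (adjusted p = 0.000283), and which of the 2 genes gave the signal is not known. With the beta-actin 3′/5′ ratio of each array as a covariate, its C+ against R+ call was lost (2.09, adjusted p = 0.202). The probe set of Hoxb7 alone, which did not pass the filter, averaged 80.3 in C+, 75.7 in R+, 62.0 in C- and 79.3 in R-. The brighter probe set shared by Hoxd4 and Hoxd3 rose by 4.76 ± 0.43 (adjusted p = 2.09e-05) and 4.72 ± 0.43 (adjusted p = 4.14e-05). The dimmer one passed in neither comparison (1.94 ± 0.67, adjusted p = 0.129, and 2.44 ± 0.67, adjusted p = 0.115).

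With a block for the replicate number, 15 genes rose in C- against R-, where 3.63% of all probe sets did. The added genes were Hoxb1 (adjusted p = 0.0372), Hoxb9 (adjusted p = 0.00654) and Hoxc6 (adjusted p = 0.0123). The array's 3′/5′ signal ratio of beta-actin, a measure of RNA integrity and labelling, was 4.52 to 7.69 on the caudal and 2.64 to 4.39 on the rostral arrays. With it as a covariate, 9 Hox genes rose in C+ against R+, where 0.576% of all probe sets did. Hoxa4 (2.53, adjusted p = 0.0634), Hoxa5 (3.90, adjusted p = 0.127), Hoxb6 (1.43, adjusted p = 0.147) and Hoxd1 (2.49, adjusted p = 0.201) no longer passed. All 12 calls in C- against R- held with this covariate. The part of this ratio in the differences was not tested further. Sums of markers of other cells take in every list member with a probe set, tested or not. The counts of these markers are from the fit without block or covariate. In that fit 2.39% of all probe sets rose in C+ against R+ and 0.959% in C- against R-. The markers of mesenchyme and meninges summed to 3045 to 3447 in C+ and 618 to 917 in R+. Of the 7 tested, 1, Dcn, rose. Dcn averaged 2345 ± 159 in C+ and 116 ± 46.1 in R+ (SD, n = 3 each). Those of inhibitory neurons summed to 3404 to 3996 in C+ and 1175 to 1435 in R+, and 3 of 6 rose. In C- against R-, mesenchyme markers summed to 2974 to 4182 in C- and 1102 to 1730 in R-, and 2 of 7, Dcn and Pdgfra, rose. Markers of neural crest and sensory ganglia summed to 5017 to 6673 in C- and 2150 to 2893 in R-, and 1 of 3, Pou4f1, rose (1.28 ± 0.22). Of the 6 inhibitory neuron markers, 1, the glycine transporter gene Slc6a5, rose (3.20 ± 0.33), with sums of 11671 to 14674 in C- and 8815 to 11423 in R-. The part of these markers in the Hox differences was not tested.

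Within the caudal piece, 8 Hox genes of groups 2 to 6 were lower in serotonin neurons than in the other cells. In C+ against C-, 8 of the 20 tested genes fell and 0 rose, where 4.64% of all probe sets fell. By cluster these were Hoxa2, Hoxa3, Hoxa4 and Hoxa5, then Hoxb2, Hoxb5 and Hoxb6, then Hoxc5. By paralog group, 3 of 7 listed genes of groups 1 to 3 and 5 of 10 of groups 4 to 6 fell. The median difference over the 33 genes with a probe set was -0.95, against -0.04 over all probe sets on the array. All 3 C+ arrays lay below all 3 C- arrays for 13 tested genes, as for 12.2% of all probe sets. Hoxd1 was the 1 tested gene with all C+ arrays above all C- arrays (1.11 ± 0.52, adjusted p = 0.265), and it passed the filter through its C+ arrays alone.

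The size of the gap differed by gene. Hoxc5, at 8.56% of its C- mean in C+, fell by 3.59 ± 0.36 (adjusted p = 1.8e-05), and Hoxa5, at 8.71%, fell by 3.49 ± 0.75 (adjusted p = 0.00901). Hoxa4 (13.9%) and Hoxb6 (14.0%) fell by 2.92 ± 0.43 (adjusted p = 0.00061) and 2.88 ± 0.36 (adjusted p = 0.000147). Hoxa2, at 40.0%, fell by 1.32 ± 0.16 (adjusted p = 0.000124). Hoxa3, at 35.6%, fell by 1.49 ± 0.32 (adjusted p = 0.00867), but did not pass without C- replicate 3 (adjusted p = 0.0531). Hoxb2, at 52.1%, fell by 0.92 ± 0.20 (adjusted p = 0.0102), and did not pass without C+ replicate 2 (adjusted p = 0.0594) with median scaling (adjusted p = 0.0944) or in a fit of C+ and C- alone (adjusted p = 0.0515). Hoxb5, at 27.2%, fell by 1.91 ± 0.52 (adjusted p = 0.0369), a call lost when any C+ or C- array or R- replicate 3 was left out (adjusted p = 0.0538 to 0.105), and lost at an offset of 1 (adjusted p = 0.197), with median scaling (adjusted p = 0.0527) and with no trend in the prior variance (adjusted p = 0.0786).

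Several genes were not shown to differ between C+ and C-. Hoxb3 stood at 70.2% of its C- mean (-0.51 ± 0.36, adjusted p = 0.514) and Hoxd3 at 82.5% (-0.26 ± 0.56, adjusted p = 0.87), and the C+ and C- arrays of Hoxd3 overlapped. Hoxb4 (39.4%, -1.35 ± 0.41, adjusted p = 0.0595), Hoxc4 (27.8%, -1.83 ± 0.58, adjusted p = 0.0766), Hoxc6 (-0.97 ± 0.30, adjusted p = 0.0663) and Hoxb1 (-1.24 ± 0.42, adjusted p = 0.0977) missed the threshold although their arrays did not overlap. With the replicate number as a block these 4 passed as well, at adjusted p = 0.0311, 0.00858, 0.00556 and 0.0398 in the order given. That made 12 genes lower, where 8.83% of all probe sets were. C- is a mixture, and markers of other cells also differed between C+ and C-. The sums given here again take in every list member with a probe set, tested or not, while the counts are of tested genes. These counts are from the fit without the block, in which 4.64% of all probe sets fell and 3.56% rose. All 6 tested glutamate neuron markers fell, with sums of 1279 to 2009 in C+ and 17253 to 17843 in C-, as did 5 of 6 for inhibitory neurons (3404 to 3996 in C+, 11671 to 14674 in C-), 6 of 7 for the cell cycle (6234 to 8056 in C+, 13404 to 15778 in C-), 4 of 4 for red blood cells (4804 to 8716 in C+, 40507 to 44980 in C-) and 2 of 3 for neural crest and sensory ganglia (592 to 943 in C+, 5017 to 6673 in C-). Of the neural progenitor markers 6 of 8 fell (20426 to 26084 in C+, 48223 to 52328 in C-). Of the mesenchyme markers 4 of 7 fell while Dcn rose by 2.50 ± 0.29 (3045 to 3447 in C+, 2974 to 4182 in C-). Their part in the Hox differences was not tested.

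The 12 genes with a group mean over 500 all reached it in C-, so they were picked partly by the group where they are high, and an order among them by paralog number is a description of these genes. Over all 20 tested genes, dim ones included, Spearman's rho between paralog number and C+ minus C- was 0.0325. Taking C+ minus C- for each of the 3 replicate numbers, Hoxa5 spanned -3.76 to -3.23, Hoxa4 -3.69 to -2.15, Hoxa3 -1.73 to -1.26 and Hoxa2 -1.50 to -1.16. In each of the 3 pairs of arrays, C+ minus C- was lower for Hoxa3, Hoxa4 and Hoxa5 than for the gene of the next lower number. In the Hoxb cluster, Hoxb6 spanned -3.47 to -2.48, Hoxb5 -2.30 to -1.52, Hoxb4 -1.73 to -1.01, Hoxb3 -0.81 to -0.30 and Hoxb2 -1.04 to -0.72. The same order held in 3 of 3 pairs from Hoxb3 to Hoxb6, and in 0 of 3 between Hoxb3 and Hoxb2. Hoxc5 (-4.01 to -3.05) lay below Hoxc4 (-2.07 to -1.49) in 3 of 3 pairs. The dim tested genes of higher number did not continue the order. Hoxa9 (0.42), Hoxa11 (-0.95) and Hoxa13 (-0.36) lay above Hoxa5, Hoxb9 (-1.19) above Hoxb6, and Hoxc6 (-0.97) and Hoxc10 (0.11) above Hoxc5. The differences between neighbouring genes were not tested, and the ranges of Hoxa5 and Hoxa4, of Hoxa3 and Hoxa2, of Hoxb5 and Hoxb4, and of Hoxb3 and Hoxb2 overlapped.

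**Figure D3:**
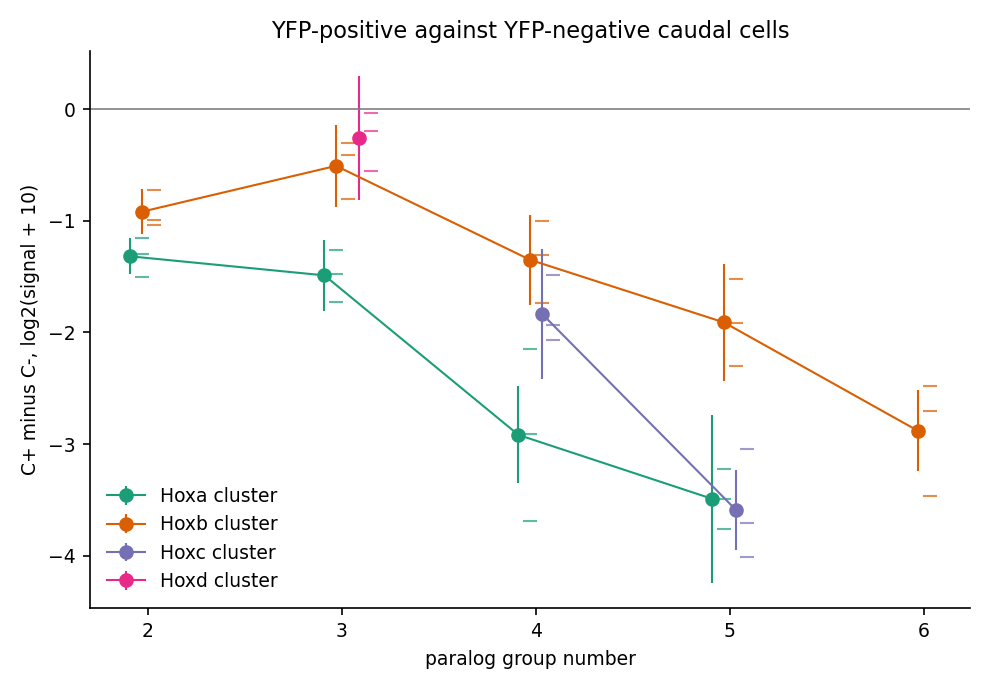
C+ minus C- in log2(signal + 10) against paralog group number for the 12 Hox genes with a group mean over 500, coloured by cluster; points with bars are the fitted difference ± SE, and the short dashes beside them are the differences of same-numbered C+ and C- arrays. The points run from -0.26 for Hoxd3 and -0.51 for Hoxb3 to -3.49 for Hoxa5 and -3.59 for Hoxc5.

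Within the rostral piece, no Hox gene passed on the probe set that stands for it. In R+ against R-, limma called 0 of the 20 tested genes, where 2.79% of all probe sets rose and 4.88% fell. At an unadjusted p under 0.05, 4 of the 20 genes differed, all lower in R+, and 17.7% of all probe sets differed in either direction. A dimmer probe set of Hoxc5 was lower in R+ than in R- (-1.83 ± 0.51, adjusted p = 0.0442), at 19, 9 and 24 in R+ and 55, 131 and 81 in R-. Hoxa2 (-0.56 ± 0.16, adjusted p = 0.0534) and Hoxb2 (-0.35 ± 0.20, adjusted p = 0.428) had all R+ arrays below all R- arrays, as did 12.9% of all probe sets. A block for the replicate number gave 4 lower genes, where 8.16% of all probe sets were lower. They were Hoxa2 (adjusted p = 0.013), Hoxa3 (-0.87 ± 0.32 without the block, 0.0408 with it), Hoxb3 (-0.83 ± 0.36 without the block, 0.0457 with it) and Hoxc5 (-1.11 ± 0.36 without the block, 0.0366 with it). The rostral arrays read 22 to 115 for Hoxa3 and 4 to 55 for Hoxc5, near or under the filter threshold. The differences of these 2 genes therefore rest on no well-measured rostral level.

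The caudal-to-rostral difference was compared between serotonin neurons and other cells as (C+ minus R+) minus (C- minus R-). In this test 1 gene passed, Hoxb6, at -3.09 ± 0.51 (adjusted p = 0.0148), where 0.192% of all probe sets were lower. The rostral arrays of Hoxb6 lay near or under the filter threshold (46 to 115), so this value holds much the same information as C+ minus C- (-2.88) and rests on no well-measured rostral level. The call was lost without C- replicate 3 (adjusted p = 0.0517), without R- replicate 3 (adjusted p = 0.0502) and without a trend in the prior variance (adjusted p = 0.053). Hoxc5 (-2.47 ± 0.51, adjusted p = 0.0521) and Hoxa4 (-2.50 ± 0.61, adjusted p = 0.134) missed the threshold. A block for the replicate number gave 4 genes, where 0.675% of all probe sets were lower. Hoxb6 was joined by Hoxa4 (adjusted p = 0.0191), Hoxc5 (adjusted p = 0.0138) and Hoxc6 (adjusted p = 0.0157). The probe set that stands for Hoxa5 gave -2.41 ± 1.06 (adjusted p = 0.857), while its other kept probe set gave -2.78 ± 0.49 (adjusted p = 0.0206).

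Several genes had more than 1 probe set. Of the other kept probe sets of called genes, 5 of 7 were called alike in C+ against R+, 6 of 7 in C- against R-, and 3 of 5 in C+ against C-, and 0 were called the opposite way. Hoxc6, which passed only in alternatives such as the replicate block, had kept probe sets on opposite sides of 0 in C+ against R+. They were at -0.56 ± 0.30 and 1.55 ± 0.55 (adjusted p = 0.336 and 0.14). For Hoxc5, the 3 kept probe sets gave 4.67 ± 0.36, 2.13 ± 0.51 and 0.47 ± 0.74 in C+ against R+, and -3.59 ± 0.36, -0.75 ± 0.51 and -4.04 ± 0.74 in C+ against C-. The probe set at -0.75 read 51, 125 and 180 in C+, against 175, 265 and 137 in C-. The annotated spans of Hoxa3 with Hoxa4 and Hoxa5, of Hoxb3 with Hoxb4, and of Hoxd3 with Hoxd4 overlap, so that transcripts of neighbours may share a signal there.

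Transcripts from the opposite strand of the clusters and genes beside them were set next to the Hox genes. Hoxb5os, an antisense transcript of the Hoxb cluster, read 351, 729 and 901 in C+ and 132, 124 and 193 in R+, against 4785, 4926 and 5221 in C- and 112, 296 and 276 in R-. It rose by 1.99 ± 0.36 in C+ against R+ (adjusted p = 0.0077) and by 4.50 ± 0.36 in C- against R- (adjusted p = 1.17e-05), and fell by 3.00 ± 0.36 in C+ against C- (adjusted p = 0.000109). Its difference of differences was -2.51 ± 0.51 (adjusted p = 0.0521, and 0.00138 with the replicate block). With the beta-actin ratio as a covariate it did not pass in C+ against R+ (adjusted p = 0.34). Hoxd3os1, antisense to the Hoxd cluster, read 91, 59 and 24 in C+ and 37, 16 and 40 in R+, against 484, 385 and 542 in C- and 4, 34 and 32 in R-. It stood over the filter threshold on the C- arrays alone. Hoxd3os1 rose in C- against R- (4.01 ± 0.57, adjusted p = 0.00194) and fell by 2.94 ± 0.57 in C+ against C- (adjusted p = 0.00479), while Hoxd3 itself overlapped between C+ and C-.

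Of the 3 nearest protein-coding genes on each side of each cluster with a tested probe set, 24 in all, 3 rose in C+ against R+ and 2 in C- against R-, where 2.39% and 0.959% of all probe sets rose. Skap2, an adaptor protein gene beside the low-number end of Hoxa, read 569, 871 and 819 in C+ and 303, 387 and 342 in R+, against 1515, 1310 and 1584 in C- and 378, 342 and 406 in R-. Its groups stood in the order seen for Hoxa2 in the caudal cells, C- over C+ over R+, with 1.09 ± 0.19 in C+ against R+ (adjusted p = 0.00487), 1.94 ± 0.19 in C- against R- (adjusted p = 6.14e-05) and -0.97 ± 0.19 in C+ against C- (adjusted p = 0.00417). Skap2 did not pass in C+ against R+ with the beta-actin ratio as a covariate (adjusted p = 0.207) or with the mean of its probe sets (adjusted p = 0.159). Smug1, a DNA repair glycosylase gene beside the low-number end of Hoxc, read 626, 840 and 1062 in C+ and 533, 595 and 732 in R+, against 1866, 2179 and 2461 in C- and 526, 890 and 664 in R-. It rose by 1.65 ± 0.23 in C- against R- (adjusted p = 0.00145) and fell by 1.38 ± 0.23 in C+ against C- (adjusted p = 0.00149). Tax1bp1 at Hoxa (0.93 ± 0.20, adjusted p = 0.0205) and Hnrnpa1 at Hoxc (0.60 ± 0.14, adjusted p = 0.026) rose in C+ against R+. Of the 12 genes beside Hoxb and Hoxd, 0 passed in either comparison of caudal with rostral cells.

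Of 9 listed Hox cofactor genes, 8 were tested, and Meis1 and Meis2 rose in C+ against R+, where 2.39% of all probe sets rose. Meis1 read 3480, 2949 and 2877 in C+ and 725, 885 and 712 in R+, against 3810, 2966 and 3418 in C- and 1919, 1863 and 1829 in R-. R+ was the low group. Meis1 was higher by 1.99 ± 0.14 in C+ than in R+ (adjusted p = 2.55e-06) and by 0.85 ± 0.14 in C- than in R- (adjusted p = 0.00639), and fell by 1.27 ± 0.14 in R+ against R- (adjusted p = 6.42e-05). The difference between C- and R- did not pass with median scaling (adjusted p = 0.131), with the mean of the gene's probe sets (adjusted p = 0.0896) or with the beta-actin ratio as a covariate (adjusted p = 0.0529). Meis2 read 13503, 18694 and 14515 in C+ and 2790, 3453 and 3118 in R+, against 11130, 13808 and 10603 in C- and 10273, 10060 and 7172 in R-. It rose by 2.31 ± 0.17 in C+ against R+ (adjusted p = 3.54e-06), stood at 0.38 ± 0.17 in C- against R- (adjusted p = 0.411), and in R+ fell by 1.54 ± 0.17 against R- (adjusted p = 6.02e-05).

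Pknox2, a relative of Meis, went the other way from Meis1 and Meis2 in the difference of differences. It read 451, 464 and 618 in C+ and 665, 1096 and 831 in R+, against 2043, 2004 and 2276 in C- and 681, 1286 and 961 in R-. Pknox2 fell by 2.04 ± 0.23 in C+ against C- (adjusted p = 6.83e-05) and rose by 1.15 ± 0.23 in C- against R- (adjusted p = 0.0252). The call between C- and R- was lost when any C- array was left out, without R- replicate 1 and without R- replicate 3 (adjusted p = 0.0693 to 0.119), and with median scaling, no trend or the beta-actin covariate (adjusted p = 0.0589 to 0.285). Pbx3, a partner of Hox proteins on DNA, read 13000, 15293 and 13385 in C+ and 17495, 19282 and 15745 in R+, against 9880, 10113 and 9445 in C- and 12724, 13008 and 10169 in R-. It rose by 0.50 ± 0.12 in C+ against C- (adjusted p = 0.0225) and by 0.55 ± 0.12 in R+ against R- (adjusted p = 0.0129), where 3.56% and 2.79% of all probe sets rose. The call in C+ against C- was lost without C+ replicate 2, C+ replicate 3 or any C- array (adjusted p = 0.051 to 0.112), and that in R+ against R- without R+ replicate 2 (adjusted p = 0.069) or R- replicate 3 (adjusted p = 0.0666). Median scaling and no trend ended both Pbx3 calls (adjusted p = 0.0591 to 0.0944), the mean of its probe sets (adjusted p = 0.104) and no filter (adjusted p = 0.0565) that in C+ against C-, and a fit of R+ and R- alone that in R+ against R- (adjusted p = 0.0502). Meis3, Pbx2, Pbx4 and Pknox1 passed in 0 of the 5 comparisons. In the difference of differences, Meis1 and Meis2 were higher and Pknox2 lower, where 0.33% of all probe sets were higher and 0.192% lower. The Meis1 call was lost with the mean of its probe sets (0.91, adjusted p = 0.416), median scaling (adjusted p = 0.124) and no trend (adjusted p = 0.0748). That of Pknox2 was lost with no trend (adjusted p = 0.0735). Both were also lost without single arrays, which are named below.

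**Figure D4:**
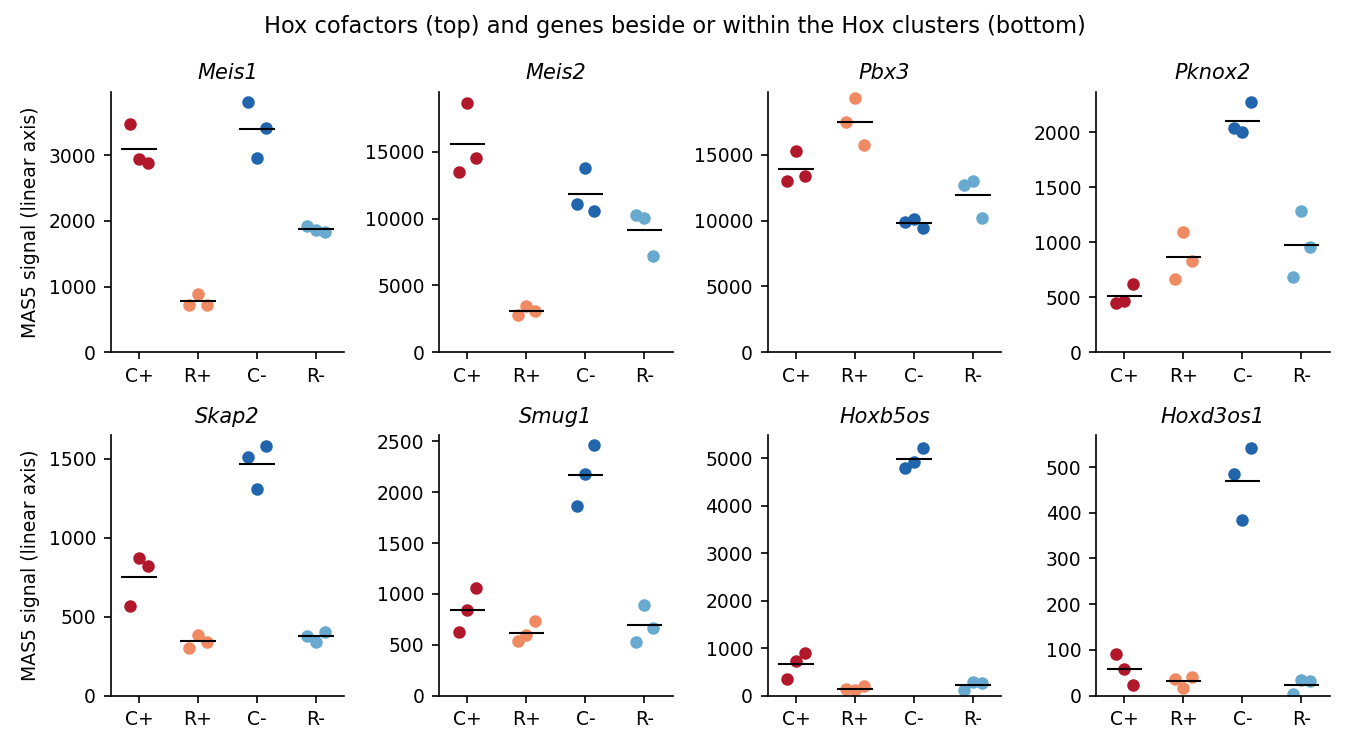
Signal on every array (linear axes from 0) of 4 Hox cofactors in the top row and of 2 genes beside and 2 antisense transcripts within the Hox clusters in the bottom row; points are arrays and black bars group means of 3. Meis1 and Meis2 are lowest in R+, Pknox2 is highest in C-, and the 4 genes of the bottom row are highest in C-.

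Genes of the midbrain and isthmus, the territory ahead of Hox expression, were counted as a contrast. Of 12 listed, 8 were tested. In C+ against R+, 4 fell and 1 rose, where 1.38% of all probe sets fell, and in C- against R-, 5 fell and 2 rose, where 0.533% fell. Gbx2, which marks the hindbrain side of the isthmus and so does not share the name of its list, was the gene that rose in C+ against R+ (1.70 ± 0.32, adjusted p = 0.0105). Without C+ replicate 2 (adjusted p = 0.0552) or C+ replicate 3 (adjusted p = 0.0504), Gbx2 did not pass in that comparison. The same held with the beta-actin ratio as a covariate (adjusted p = 0.199) and in a fit of C+ and R+ alone (adjusted p = 0.072). In C- against R-, the 2 that rose were Gbx2 (3.50 ± 0.32, adjusted p = 4.52e-05) and Pax8 (2.19 ± 0.30, adjusted p = 0.00124).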

How the data were processed

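The deposited values are MAS5 signal intensity, linear and rounded to whole numbers; MAS5 is named per the submitters' processing notes, and the sources used here give neither its version nor its settings. Arrays were already scaled by the authors (mean without the lowest and highest 2% of 500 in the deposited values). Genes were named through the platform's probe table, where 34945 probe sets have 1 symbol, 932 several and 9160 none; 64 controls were left out. No array coordinates are given because the files name no build. Members, lists and tests were chosen with earlier results of these data known.

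The test was limma 3.58.1 (R 4.3.3) applied to log2(signal + 10), with 1 mean per group over all 12 arrays, a trended prior variance, two-sided tests and Benjamini-Hochberg adjustment at 0.05 over 26061 probe sets per comparison. Each gene is called by its brightest kept probe set (one ending in _x_at only where it had no other). All listed Hox genes may be named; every array is given for called genes with a group mean over 500, the rest by ranges or counts, besides members of fixed lists. The procedure was tested on simulated data.

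Replicate numbers paired the samples: deviations from the group means correlated at 0.169 to 0.597 in all 18 same-numbered pairs and at -0.468 to 0.318 in the other 36. The labels do not say what a number shares. Arrays of a group correlated at 0.9149 or more. Alternatives were other offsets, filters, scalings, probe set rules, a replicate block, a beta-actin 3′/5′ covariate, no trend, fits of 2 groups alone, leaving out each array, and a 2-fold minimum.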

Additional observations from a re-analysis of the deposited data

Results flagged for a closer look

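Of the tested Hox genes and Hox cofactor genes, 4 passed the test of whether the caudal-to-rostral difference differs between serotonin neurons and other cells, (C+ minus R+) minus (C- minus R-) over all probe sets. Of all probe sets, 0.522% passed it, 0.33% higher and 0.192% lower. Among the cell type markers, Dcn (2.69 ± 0.42, adjusted p = 0.00893), Gad1 (3.00 ± 0.27, adjusted p = 9.73e-05), Ddc (2.21 ± 0.20, adjusted p = 0.000113) and Gata2 (1.18 ± 0.22, adjusted p = 0.0291) passed it as well. Hoxb6 was at -3.09 ± 0.51 (adjusted p = 0.0148), with 2.45 in C+ against R+ and 5.53 in C- against R-, and with rostral arrays near or under the filter threshold, so that it mostly restates C+ minus C- (-2.88). It was below 0 in the fit without any single array, and missed the threshold without C- replicate 3 (adjusted p = 0.0517) and without R- replicate 3 (adjusted p = 0.0502). Meis2 was at 1.93 ± 0.24 (adjusted p = 0.0016), with 2.31 in C+ against R+ and 0.38 in C- against R-. Meis1 was at 1.14 ± 0.20 (adjusted p = 0.0206). It missed the threshold without C+ replicate 2, R+ replicate 1, R+ replicate 3, C- replicate 2, C- replicate 3 or any R- array. With the mean of the Meis1 probe sets (adjusted p = 0.416, the highest over all alternatives), median scaling (adjusted p = 0.124) or no trend (adjusted p = 0.0748), Meis1 also missed the threshold. Pknox2 was at -1.88 ± 0.33 (adjusted p = 0.0206), and missed it without C+ replicate 2, R+ replicate 2, R+ replicate 3, C- replicate 2, C- replicate 3 or R- replicate 3 (highest adjusted p = 0.075).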

How the results depend on the processing

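Of 34 called Hox results, 26 were called in every alternative and 8 were lost in at least 1; 0 reversed, and the 8 are those named with their lost calls above. Of 45 called results of the other genes followed through the alternatives, 15 were lost in at least 1. Calls of Dcn, Pdgfra, Pou4f1, Slc6a5, Pax8, Tax1bp1, Hnrnpa1, Evx1 and Phc2, among others, were not followed through them. All probe sets called were 984 (C+ against R+), 389 (C- against R-), 2136 (C+ against C-), 1999 (R+ against R-) and 136 (difference of differences). In the same order they were 4327, 1770, 4279, 3740 and 419 with the replicate block, which lost no Hox call. For C+ against R+ they were 535 with median scaling, 227 with the beta-actin covariate, 639 with no trend, 523 with only both groups and 514 at 2-fold; for C- against R-, 191 with the covariate; at 2-fold, 1341 for C+ against C- and 1284 for R+ against R-; and 81 with no trend for the difference of differences. The share of calls that were higher in C- against R- was 64.3%, and 51.9% with median scaling; in the difference of differences it was 63.2% and 73.3%.

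Hox genes called in R+ against R- (0) became 4 with the replicate block and 1 at an offset of 1, with a filter of 200, with 1 probe set per gene, with the mean of probe sets and with the covariate. In the difference of differences (1) they became 4 with the replicate block, 3 at an offset of 50 and with the covariate, 2 with a filter of 200 and with 1 probe set per gene, and 0 with no trend. Leaving out each array in turn gave 393 to 2271 calls and 13 Hox genes for C+ against R+, 204 to 433 and 12 to 13 for C- against R-, 1429 to 2262 and 6 to 10 for C+ against C-, 1277 to 2229 and 0 to 2 for R+ against R-, and 68 to 165 and 0 to 2 for the difference of differences; Hox probe sets called over all 5 comparisons were 50, and 43 to 53. For C+ against R+ the highest count came without C+ replicate 1 and the lowest without C+ replicate 2, and for the difference of differences 0 Hox genes were called without C- replicate 3 or R- replicate 3. The causes of these shifts were not tested. The 3 arrays per group limit precision, dim genes have no detection calls, and C- and R- are mixtures of cells.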

Other observations

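Genes known to act on the Hox clusters were counted too. Of 14 upstream regulators, 5 were tested, and 0 passed in C+ against R+ or C- against R-. In C+ against C-, 3 fell, where 4.64% of all probe sets fell. Cyp26b1, which breaks down retinoic acid, read 490, 401 and 448 in C+, against 1183, 805 and 1087 in C-, and fell by 1.17 ± 0.18 (adjusted p = 0.000895). It also fell in R+ against R-, by 0.90 ± 0.18 (adjusted p = 0.00661). Gmnn, or geminin, a replication licensing inhibitor, fell by 1.52 ± 0.29 in C+ against C- (adjusted p = 0.0041) and fell by 1.81 ± 0.29 in R+ against R- (adjusted p = 0.0012). Rarb, a retinoic acid receptor, fell by 1.66 ± 0.47 in C+ against C- (adjusted p = 0.0473), which was lost without any C+ or R- array, without R+ replicate 3, without C- replicate 2 and without C- replicate 3 (adjusted p up to 0.167). Cdx1, Cdx2 and Cdx4 did not pass the filter on low signal. Of 18 Polycomb and trithorax genes 17 were tested, and 1, Phc2, fell by 0.69 in C+ against C- (adjusted p = 0.0313), a share of the list near that of all probe sets.

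Evx1, an even-skipped homologue beside the high-number end of Hoxa and a marker of spinal interneurons, read 12, 173 and 57 in C+ and 118, 91 and 152 in R+, against 678, 592 and 635 in C- and 578, 726 and 773 in R-. It fell by 3.32 ± 0.53 in C+ against C- (adjusted p = 0.00109) and fell by 2.45 ± 0.53 in R+ against R- (adjusted p = 0.0103), and it did not pass between C+ and R+ (adjusted p = 0.338) or between C- and R- (adjusted p = 0.964). Evx2, beside Hoxd, passed in 0 of the 5 comparisons.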
